A study of Caenorhabditis elegans with 58 samples.

Results

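The comparison described here asked which miRNA arms differ when the gene ebax-1 is lost in animals whose 2 main miRNA Argonautes already cannot cut targets. It uses 8 of the series' 58 small RNA libraries, chosen by their labels alone: in the young adults of experiment 2, the 4 libraries of alg-1(AEDH) with alg-2(AEDH), and the 4 that carry ebax-1(null) besides. Every arm in the deposited table that passed a filter on low counts entered the test, 226 of 276 arms from 138 hairpins. Both groups were whole hermaphrodites of Caenorhabditis elegans, grown from hatched L1 larvae for 44 h at 25 °C. The control strain, MCJ275, carries alg-2(cdb155) II and alg-1(cdb153) X, the alleles that replace a residue of the catalytic tetrad in ALG-2 and ALG-1 and give AEDH. It is called double AEDH below. Strain MCJ354 carries the same 2 alleles with ebax-1(tm2321) IV, labelled a null, and is called ebax-1 null double AEDH. So both groups lack slicing by ALG-1 and ALG-2, and only ebax-1 separates them by label. The matching pair with intact Argonautes, ebax-1(tm2321) alone (strain CZ9907) and wild type (N2), is used for reference, with 4 libraries each, and so are 4 libraries of double AEDH animals in which a mir-243 site of Y47H10A.5 is deleted (strain MCJ352). The same site deletion with intact Argonautes, 4 libraries of experiment 2, enters the shared fits only. Wild type and double AEDH young adults of experiment 1, 4 libraries each, are cited later. A small RNA table cannot show the ebax-1 or Argonaute alleles themselves. Whether the replicates were grown separately is not stated in the labels, and the spread behind the p-values may therefore be technical alone.

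An miRNA hairpin is cut into a short duplex, of which an Argonaute keeps the guide strand, while the other strand, the star strand, is usually lost. Target-directed miRNA degradation (TDMD) removes particular guide strands: extensive pairing with a target lets a ubiquitin ligase, which recognises its substrate through EBAX-1 (ZSWIM8 in mammals), mark the Argonaute for destruction, and the exposed miRNA decays. The partner strand of the same hairpin does not take part, so loss of the ligase is known to raise one arm of a hairpin without raising the other. Slicing is a separate way in which a fully paired target can meet an Argonaute, and it needs the catalytic tetrad.

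The 8 libraries held 8298176 to 11847443 miRNA counts each, and 237 to 248 arms had at least 1 count. Levels are given as CPM, an arm's count relative to its library's total, after TMM scaling, a correction that sets the typical arm equal between libraries, and 3 counts correspond to 0.253 to 0.362 CPM. Within ebax-1 null double AEDH a single library stood apart before any test. Across arms, replicate 4 correlated with replicates 1 to 3 at r = 0.990 on log2 CPM, where those 3 correlated with each other at 0.996 to 0.998. The double AEDH replicates correlated at 0.993 to 0.997. By a chi-square of counts per degree of freedom, replicate 4 was not extreme among the groups. Its pairs gave 1237 to 1716, and double AEDH replicates 2 and 3 gave 2152. The called arms are also given without replicate 4 of ebax-1 null double AEDH, some of the lowered ones as a range. The libraries also contain spike-in RNAs. Counts on miRNA arms per spike-in count were 7.04 to 11.7 in double AEDH and 11.2 to 14.7 in ebax-1 null double AEDH (8.84 ± 1.99 against 12.5 ± 1.53, SD, n = 4 each; two-sided exact permutation p = 0.0571, where 0.0286 is the smallest possible).

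Loss of ebax-1 in double AEDH animals raised 16 arms and lowered 20 of the 226 tested (edgeR quasi-likelihood test, Benjamini-Hochberg adjusted p under 0.05), which is 7.08% and 8.85% of arms (15.9% in all). The raised arms changed far more than the lowered ones. Their log2 fold changes ran from 0.40 to 4.15 and 9 of them exceeded 1, whereas the lowered arms lay between -0.98 and -0.37. Of the raised arms 9 were star arms and 7 guide arms, which is 9.47% of the 95 star arms and 5.34% of the 131 guide arms tested. The lowered arms were 17 guides and 3 stars (13.0% and 3.16%). Libraries of the 2 groups did not overlap for 13 of the 16 raised and 17 of the 20 lowered arms; over all arms tested, 6.64% were higher and 10.6% lower without overlap. When libraries were scaled to the spike-ins instead of the typical arm, the median log2 fold change went from -0.041 to 0.47, and edgeR called 26 arms higher and 0 lower (77 and 0 at an unadjusted p under 0.05). All 16 raised arms passed under both scalings. In whole animals, fewer cells of a type and less RNA per cell cannot be told apart.

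The number of calls was 27 (13 higher, 14 lower) when only the compared groups were fitted. Of the raised arms, mir-235_3p, mir-237_3p*, mir-82_5p* and mir-58a_5p* did not pass in that fit. The number also depended on single libraries. It was 19 without double AEDH replicate 1, 28 without replicate 2 and 20 without replicate 3 or replicate 4 of that group. Among the ebax-1 null double AEDH libraries it was 22 without replicate 1, 21 without replicate 2, 21 without replicate 3 and 29 (15 higher, 14 lower) without replicate 4. Under each of these 8 omissions, 11 of the raised arms passed: mir-788_5p*, mir-42_3p, mir-247_3p, mir-43_3p, let-7_3p*, mir-797_5p*, mir-230_3p, mir-34_5p*, mir-67_5p*, mir-44_3p and mir-45_3p. Of the lowered arms only 5 did, namely mir-1822_3p, mir-1829a_5p, mir-60_3p, mir-785_3p and mir-795_5p. The other 5 raised arms missed the threshold under 3 to 5 of the 8 omissions and the other 15 lowered arms under 5 to 8 of them, each keeping its direction.

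The largest change was in a star arm. The hairpin of mir-788_5p* (build ce11; X, 8485301 to 8485362, minus strand) overlaps no protein-coding gene, and the deposited annotation lists it as 2 overlapping entries. It measured 39.5, 27.4, 37.6 and 21.2 CPM in the 4 double AEDH libraries (replicates 1 to 4, the order used throughout) and 506, 543, 542 and 632 CPM in the 4 ebax-1 null double AEDH libraries. The lowest library without ebax-1 lay far above the highest library with it. The means differed 17.7-fold, and the log2 fold change was 4.15 (95% interval 3.72 to 4.58; edgeR adjusted p = 7.15e-14), or 4.13 without replicate 4. Its partner mir-788_3p, the annotated guide, stood at 93.2, 56.8, 104 and 80.6 CPM against 54.2, 58.7, 54.3 and 85.8 CPM, with overlapping groups (log2 fold change -0.40, interval -0.82 to 0.018, adjusted p = 0.233). The annotated star supplied 29.8, 32.6, 26.6 and 20.8% of the hairpin's counts in double AEDH and 90.3, 90.2, 90.9 and 88.0% without ebax-1. The strand called star was thus the minor one in every double AEDH library and the major one in every ebax-1 null double AEDH library.

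Guide arms annotated to a run of 3 neighbouring hairpins on chromosome II were raised by unequal amounts. mir-42 (II, 11889823 to 11889891, plus strand), mir-43 (11889930 to 11889992) and mir-44 (11890038 to 11890103) lie side by side on the plus strand, outside protein-coding genes. mir-42_3p belongs to the mir-35 family, which is supplied by the germline, abundant in embryos and needed for embryonic development. It measured 147, 129, 120.3 and 121 CPM in double AEDH and 1353, 1431, 1697 and 1026 CPM in ebax-1 null double AEDH. No library of one group came near the other: the means differed 10.7-fold (edgeR log2 fold change 3.41, interval 2.92 to 3.91, adjusted p = 5.20e-11; 3.59 without replicate 4, the lowest of its group). mir-42_5p*, its partner, stayed at 44.5 ± 7.32 against 50.2 ± 12.7 CPM (SD, n = 4 each; log2 fold change 0.17, interval -0.30 to 0.64, adjusted p = 0.762), and the star share of the hairpin went from 22.3, 29.8, 26.5 and 23.8% to 4.80, 3.38, 2.27 and 4.03%.

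mir-43_3p, a member of the mir-2 family, was rare: 1.11, 4.60, 1.04 and 2.60 CPM in double AEDH and 14.2, 11.9, 18.0 and 4.65 CPM without ebax-1. The groups met closely, with the highest double AEDH library just under replicate 4 of the other group, and the other 3 libraries without ebax-1 well above. Its log2 fold change was 2.34 (interval 1.47 to 3.22, edgeR adjusted p = 0.000370; 2.68 without replicate 4). mir-44_3p measured 25813, 23674, 25404 and 26319 CPM and then 37902, 36207, 37502 and 54605 CPM, a far more abundant arm with a smaller change of 0.72 on the log2 scale (interval 0.44 to 1.00, adjusted p = 0.000497; 0.62 without replicate 4, the highest library). The separate hairpin mir-45 (II, 11880959 to 11881025, minus strand) gave 0.72 for mir-45_3p (0.62 without replicate 4). However, mir-44_3p and mir-45_3p are near-identical and counting could have shared their reads, so they do not count as independent. The rise therefore cannot be assigned to mir-44 or to mir-45 from these counts. Their star arms, which differ, had log2 fold changes of 0.25 (interval -0.58 to 1.07) and 0.10 (-0.57 to 0.77), with overlapping groups. mir-43_5p*, at 0.385 ± 0.360 to 0.745 ± 0.0460 CPM in the 2 groups, was too rare to compare.

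On the X chromosome, mir-247 (X, 4756991 to 4757052, plus strand) and mir-797 (4757123 to 4757186) lie 70 bases apart on the same strand, outside protein-coding genes, and each gave 1 raised arm. mir-247_3p, a guide arm grouped with mir-44, mir-45 and mir-61, stood at 15.3, 14.2, 10.4 and 11.5 CPM in double AEDH and at 107, 112, 122 and 81.7 CPM in ebax-1 null double AEDH. The groups were separated by a wide gap, and the log2 fold change was 3.04 (interval 2.59 to 3.49, edgeR adjusted p = 6.61e-11; 3.21 without replicate 4). The star arm of mir-247 had too few counts to be tested. For mir-797 it was the star arm that rose. mir-797_5p* measured 3.58, 2.12, 5.34 and 2.60 CPM and 9.33, 15.5, 17.5 and 11.3 CPM, a log2 fold change of 1.99 (interval 1.28 to 2.70, adjusted p = 0.000245; 2.12 without replicate 4) with no overlap, although all 8 libraries were low. Its partner mir-797_3p went from 6.57 ± 0.434 to 9.06 ± 1.32 CPM (0.46, interval -0.011 to 0.93, adjusted p = 0.219).

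mir-230_3p, the guide arm of an X-linked hairpin outside protein-coding genes (X, 5803908 to 5803974, plus strand), was raised from an already high level. It measured 728, 546, 792 and 575 CPM in double AEDH and 2086, 1821, 1908 and 2799 CPM in ebax-1 null double AEDH. Every library without ebax-1 exceeded every library with it, by a log2 fold change of 1.71 (interval 1.35 to 2.06, edgeR adjusted p = 4.16e-08; 1.61 without replicate 4). mir-230_5p, its star, measured 156, 174, 198 and 187 CPM and 135, 138, 121 and 166 CPM. These groups overlapped through replicate 4, and the change of -0.35 (interval -0.62 to -0.084) missed the threshold (adjusted p = 0.0640). The star share of mir-230 fell from 17.7, 24.2, 20.0 and 24.5% to 6.08, 7.06, 5.95 and 5.60%, against 9.65 ± 0.560% in wild type and 2.24 ± 0.196% in ebax-1 null (SD, n = 4 each). The guide of this hairpin thus differed with ebax-1, and its star differed between double AEDH and wild type (log2 fold change 1.11, edgeR adjusted p = 3.17e-06). The next hairpin, mir-791, 5386 bases away on the same strand, had -0.016 for its guide.

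**Figure D1:**
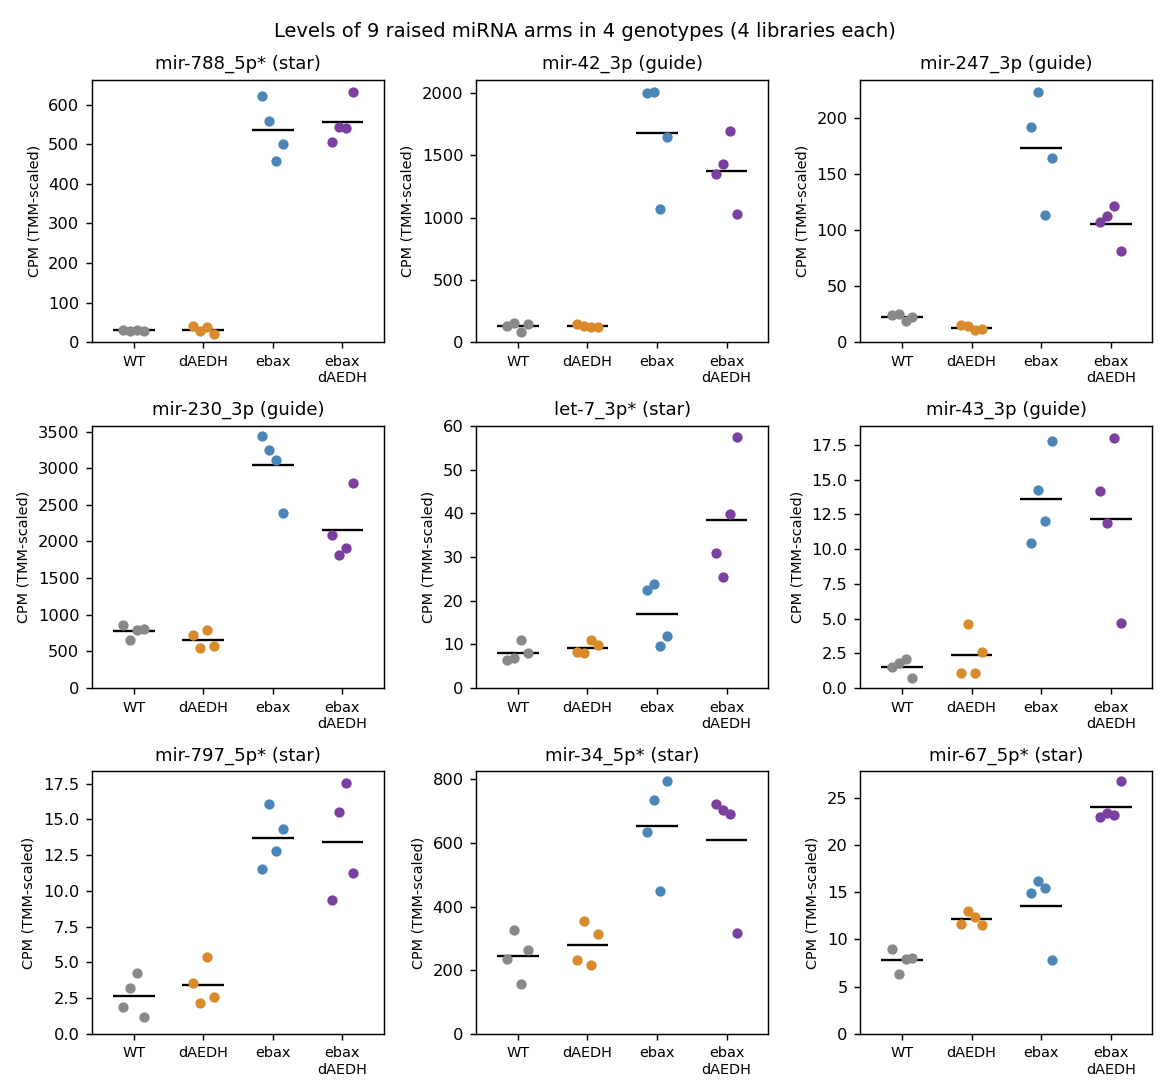
Levels of 9 raised arms in each library (y axis, TMM-scaled CPM, linear from 0; points are libraries, bars are group means, n = 4) for wild type (WT), double AEDH (dAEDH), ebax-1 null (ebax) and ebax-1 null double AEDH (ebax dAEDH). mir-788_5p* sits at 21.2 to 39.5 CPM in double AEDH and at 506 to 632 CPM in ebax-1 null double AEDH, and let-7_3p* is higher in ebax-1 null double AEDH than in ebax-1 null.

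Star arms of 3 developmental timing miRNAs rose, and their guides did not pass the test in this comparison. let-7, which promotes the larval-to-adult transition, had let-7_3p* at 8.14, 8.01, 11.0 and 9.78 CPM in double AEDH and 30.9, 25.4, 39.9 and 57.5 CPM in ebax-1 null double AEDH. The groups were well apart, and the log2 fold change was 2.05 (interval 1.41 to 2.69, edgeR adjusted p = 3.72e-05; 1.85 without replicate 4, the highest library). The mature guide let-7_5p, far more abundant, was at 12578 ± 2684 against 13560.5 ± 2628 CPM (SD, n = 4 each; 0.11, interval -0.22 to 0.44). lin-4_3p*, the star of the miRNA that times early larval fates, reached only 2.22, 2.30, 2.32 and 4.22 CPM and 4.77, 5.58, 6.72 and 6.73 CPM, with a log2 fold change of 1.09 (adjusted p = 0.0290; 1.09 without replicate 4). Its guide lin-4_5p went from 2906 ± 749 to 4174 ± 755 CPM (0.52, interval 0.047 to 1.00, adjusted p = 0.141). That guide did pass in ebax-1 null against wild type (0.70, edgeR adjusted p = 0.0307). The lin-4_3p* call was lost under 4 omissions of a library and against the double AEDH libraries with the Y47H10A.5 site deletion. mir-237_3p*, from a relative of lin-4, measured 41.1, 21.6, 52.6 and 31.3 CPM and 56.4, 57.2, 52.5 and 87.5 CPM. Its groups met at their edges, and the change of 0.79 (adjusted p = 0.0297) was 0.65 and no longer passed without replicate 4 (adjusted p = 0.0881). The guide of mir-237 had 0.20 (interval -0.24 to 0.64), but passed with spike-in scaling (adjusted p = 0.0354), where the median of all arms was also higher, so that its star and guide then both passed.

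Other star arms rose as well. mir-34 belongs to a conserved family that p53 regulates in mammals, and its annotated star is the main product in these animals. mir-34_5p* measured 233, 356, 217 and 314 CPM in double AEDH and 722, 704, 692 and 318 CPM in ebax-1 null double AEDH. Replicates 1 to 3 without ebax-1 were close together and far above the controls, whereas replicate 4 lay inside the control range. The log2 fold change of 1.12 (interval 0.54 to 1.70, edgeR adjusted p = 0.00760) became 1.40 without it, while mir-34_3p stayed at 19.4 ± 4.38 against 16.1 ± 4.45 CPM (-0.27, interval -0.75 to 0.21). mir-67_5p*, from an intron of zmp-1, a matrix metalloproteinase gene, was tight in both groups at 11.6, 13.0, 12.4 and 11.5 CPM and 23.0, 23.4, 23.2 and 26.8 CPM. Its log2 fold change was 0.99 (interval 0.46 to 1.52, adjusted p = 0.00991; 1.00 without replicate 4), with mir-67_3p at 0.34 (interval -0.22 to 0.91). The smallest raised arms were mir-82_5p* (0.44) and mir-58a_5p* (0.40), stars of the mir-58 family related to fly bantam, and mir-235_3p (0.40), a guide related to mammalian miR-92, with adjusted p of 0.0361 to 0.0402. Without replicate 4 they were 0.54, 0.41 and 0.35, and mir-58a_5p* (adjusted p = 0.0536) and mir-235_3p (0.0763) did not pass.

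**Figure D2:**
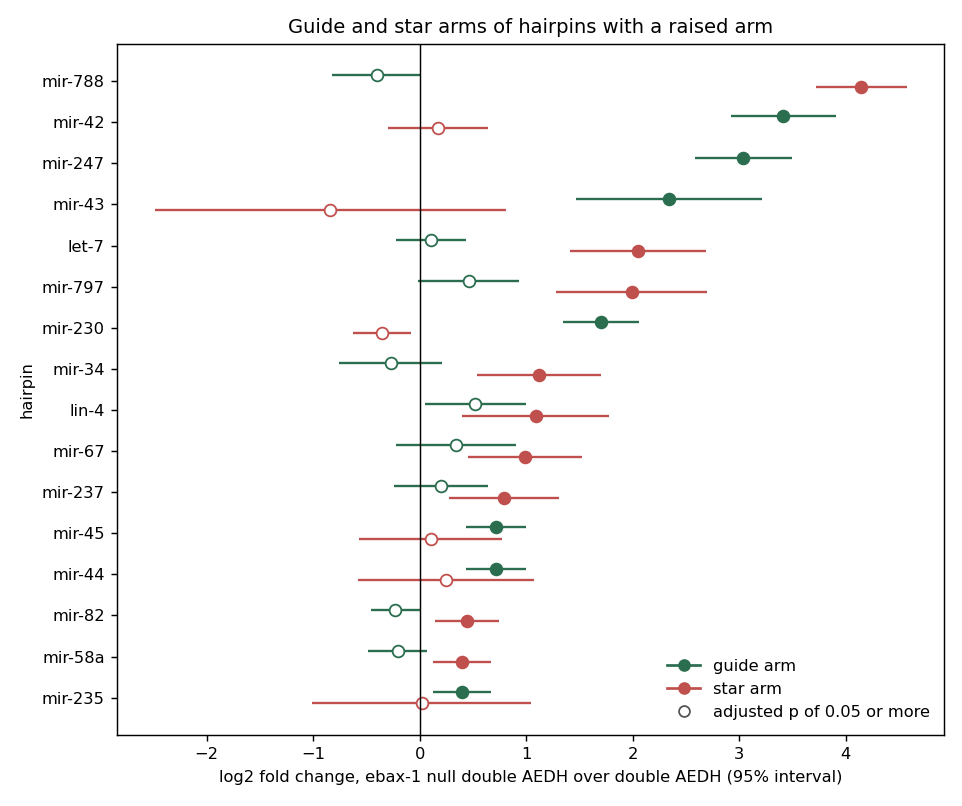
Log2 fold change (x axis, ebax-1 null double AEDH over double AEDH, edgeR estimate with 95% interval) of the guide arm and the star arm of each hairpin that had a raised arm (y axis). Filled points passed the adjusted threshold. In each of the 15 hairpins with both arms tested, 1 arm passed and the other did not, as with mir-788 (star 4.15, guide -0.40) and mir-42 (guide 3.41, star 0.17). Over all arms tested 15.9% passed in either direction, so a partner that did not pass is the usual case. An arm that missed the threshold is not thereby shown to differ from its partner. The star-to-guide ratio passed only for mir-788, let-7, mir-797, mir-34, mir-82, mir-237, mir-58a, mir-42 and mir-230.

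The ratio of the 2 arms of a hairpin does not depend on how libraries are scaled. Log2 of star over guide counts differed in 9 of 92 hairpins (9.78%, limma adjusted p under 0.05), upward in 7 (7.61%) and downward in 2 (2.17%). The shift toward the star was largest for mir-788, at 4.57 (interval 4.08 to 5.07, adjusted p = 1.55e-13). let-7 followed at 1.88, where the star share rose from 0.0689, 0.0879, 0.0741 and 0.0673% to 0.238, 0.223, 0.318 and 0.330%, and mir-797 at 1.55, where it rose from 36.7, 24.5, 45.5 and 26.6% to 48.9, 68.5, 65.3 and 52.9%. mir-34 shifted by 1.36, mir-82 by 0.70, mir-237 by 0.64 and mir-58a by 0.61. The shifts toward the guide were mir-42, at -3.24 (interval -3.96 to -2.52, adjusted p = 1.03e-07), and mir-230, at -2.06 (interval -2.40 to -1.72, adjusted p = 4.44e-10). The count was 7 to 9 when any 1 of the 8 libraries was left out and 5 when only the compared groups were fitted, a fit in which mir-797, mir-237, mir-82 and mir-58a did not pass.

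Over all hairpins the typical shift was small beside those of the called ones. The median over hairpins of the centred log2 ratio was 0.048 ± 0.084 in double AEDH and 0.17 ± 0.083 in ebax-1 null double AEDH (SD, n = 4 each), a shift of 0.12 (two-sided exact permutation p = 0.0571). Without replicate 4 of ebax-1 null double AEDH the shift was 0.15 and p was 0.0286, the smallest possible there. Star arms made up 1.50 ± 0.152% and 1.67 ± 0.147% of miRNA counts (exact permutation p = 0.200).

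The lowered arms were nearly all guides, each with a modest change. mir-795_5p, a let-7 family member, had the largest, from 167, 125, 177 and 171 CPM to 63.2, 63.2, 78.2 and 120.4 CPM. The groups did not overlap, though replicate 4 came within a few CPM of the lowest control, and the log2 fold change was -0.98 (interval -1.41 to -0.55, edgeR adjusted p = 0.00168; -1.18 without replicate 4). Its star mir-795_3p* fell in parallel (-0.93, adjusted p = 0.0232), so both arms of this hairpin were lower. mir-1822, in an intron of ZK84.2, was the other hairpin of this kind outside the mir-229 locus: mir-1822_3p went from 48.4, 57.7, 38.9 and 46.7 CPM to 28.6, 25.5, 29.1 and 25.0 CPM (-0.83, adjusted p = 0.000497), and mir-1822_5p* from 4.62 ± 0.709 to 2.64 ± 0.537 CPM (-0.81). All ebax-1 null double AEDH libraries were below all double AEDH libraries for both arms.

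mir-785_3p fell from 301, 238, 382 and 299 CPM to 175, 174, 152 and 174 CPM (-0.86, interval -1.22 to -0.49, edgeR adjusted p = 0.00137; -0.81 without replicate 4). Against the double AEDH libraries with the Y47H10A.5 site deletion it was -0.46 and did not pass (adjusted p = 0.0923). mir-249_3p, whose hairpin lies 1706 bases away on the opposite strand of the X chromosome, fell by 0.55. lsy-6_3p, the miRNA that sets left-right asymmetry of a pair of taste neurons, measured 21.6, 17.7, 15.8 and 27.2 CPM and then 11.0, 10.6, 10.1 and 14.1 CPM, without overlap (-0.85, adjusted p = 0.00751). mir-60_3p was 935, 915, 992 and 997 CPM and then 634, 653, 641 and 432 CPM (-0.70, adjusted p = 0.00165; -0.52 without replicate 4, the lowest library). The most abundant lowered arms were mir-70_3p, from an intron of pmp-5, at 39124 ± 7291 against 24279 ± 4694 CPM (-0.69), and mir-77_3p at 17034 ± 3006 against 11132 ± 2177 CPM (-0.61). mir-77_3p did not pass without replicate 4 (-0.42, adjusted p = 0.135).

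At the mir-229 locus on chromosome III, in an intron of gcn-1, both arms of mir-229 were lower: mir-229_5p by -0.44 and mir-229_3p* by -0.45 on the log2 scale (edgeR adjusted p = 0.0204 and 0.0297). These calls were not stable: mir-229_5p missed the threshold under all 8 omissions of a library and mir-229_3p* under 6 of them. Neither arm passed when only the compared groups were fitted or against the double AEDH libraries with the Y47H10A.5 site deletion. The neighbours on the same strand, mir-64_5p, mir-65_5p and mir-66_5p, had 0.079, 0.013 and -0.25 and none passed. mir-63_3p, a relative elsewhere, was 1482, 1469.5, 1458 and 1489 CPM and then 1066, 1153, 1195 and 1139.8 CPM, the smallest change called (-0.37, adjusted p = 0.00991), with both groups tight. That call was not stable either: it missed the threshold under 7 of the 8 omissions (edgeR adjusted p up to 0.182). It also did not pass with total counts or spike-ins as the scaling, or when only the compared groups were fitted. The remaining lowered arms, mir-2953_3p, mir-2210_3p, mir-1829a_5p, mir-236_3p, mir-254_3p, mir-245_3p and mir-137_3p, lay between -0.94 and -0.38. Among hairpins within 10 kb of a lowered one, mir-794_5p, beside mir-795, had -0.53 (adjusted p = 0.0640). mir-2953_3p and mir-137_3p are outside the naming rule and were added after their values were seen.

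Of the 20 lowered arms, 13 passed without replicate 4 of ebax-1 null double AEDH, with log2 fold changes of -1.18 to -0.28 for all 20. The 7 that did not were mir-77_3p, mir-236_3p, mir-229_5p, mir-249_3p, mir-63_3p, mir-137_3p and mir-1822_5p*. Scaled to the spike-ins, none passed: their changes were -0.51 to 0.15, with 15 of 20 still below 0, and relative to the median of all arms in that scaling (0.47) they were -0.98 to -0.32. mir-137_3p, mir-229_5p, mir-229_3p*, mir-245_3p and mir-63_3p were the 5 above 0. All 20 were below that median.

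**Figure D3:**
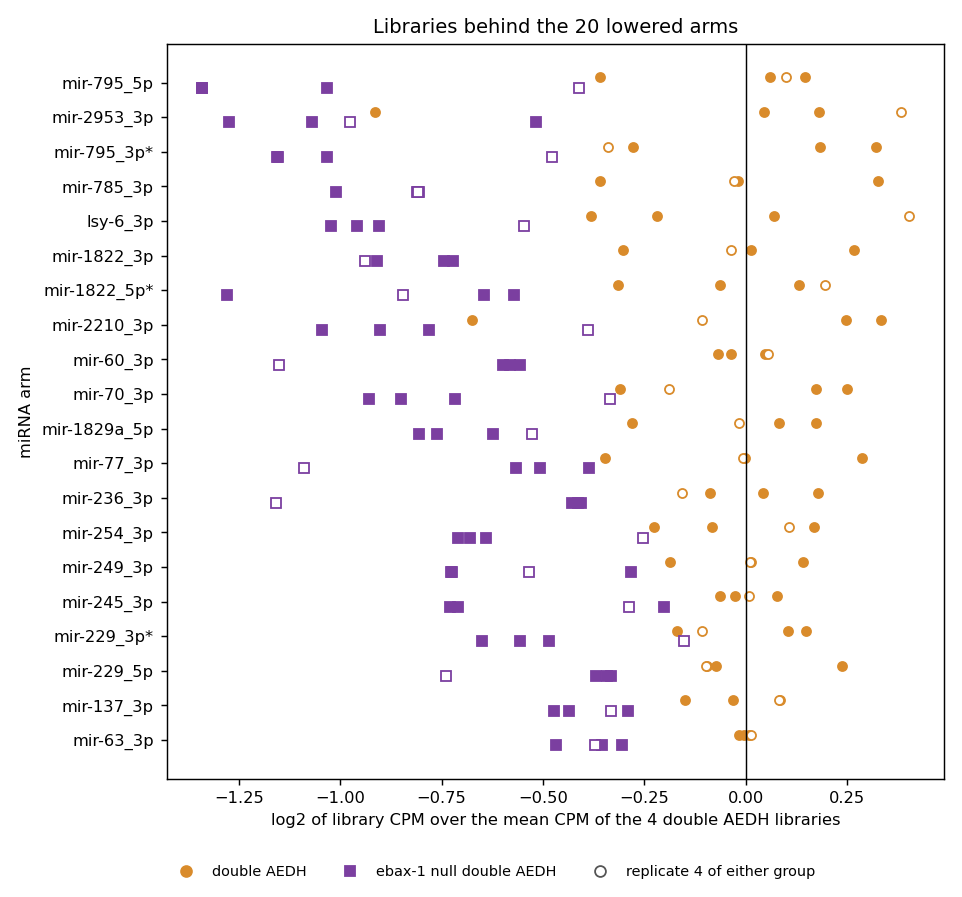
Each library's level of the 20 lowered arms (y axis), as log2 of its TMM-scaled CPM over the mean of the 4 double AEDH libraries (x axis, 0 is that mean); circles are double AEDH, squares ebax-1 null double AEDH, and open symbols replicate 4 of each. Groups overlap for mir-2953_3p, mir-2210_3p and mir-229_3p*, and replicate 4 of ebax-1 null double AEDH is often at the edge of its group, as for mir-60_3p at 432 CPM against 634 to 653 in the others.

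The arms were then read by miRNA family. In the mir-35 family, 1 of 8 guides rose (7.08% of all arms did), and that was mir-42_3p. The other 7, mir-35_3p to mir-41_3p, had log2 fold changes of -0.021 to 0.61, and together held 39098 to 47784 CPM in double AEDH and 37046 to 53667 CPM in ebax-1 null double AEDH, with overlapping groups. Their intervals were wide (for mir-35_3p -0.62 to 0.76), so a change within that range, in either direction, is not excluded here. In the mir-44 family 3 of 4 guides rose (mir-44_3p, mir-45_3p and mir-247_3p, the first 2 near-identical) and mir-61_3p stood at 0.15. The mir-2 family had 1 raised guide of 4, mir-43_3p, and 1 raised star of 4, mir-797_5p*.

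The let-7 and lin-4 families, 8 hairpins, had 3 raised stars (let-7, lin-4 and mir-237), 1 lowered star and 1 lowered guide, the last 2 both from mir-795. The median of their guides was -0.10 and of their stars 0.16, against -0.041 over all arms. In the mir-58 family 2 of 4 stars rose and 0 of 5 guides passed. Those stars, mir-82_5p* and mir-58a_5p*, did not pass against the double AEDH libraries with the Y47H10A.5 site deletion. Over all arms tested, 9.47% of stars and 5.34% of guides were higher, and 3.16% of stars and 13.0% of guides were lower, the shares beside which the counts here stand. In the mir-51 family, related to miR-100, 0 of 6 guides and 0 of 5 stars passed in either direction, with guides between -0.29 and 0.11. The 3 mir-1829 guides were all below 0 (median -0.56) and 1 passed, while their stars had a median of 0.28 and 0 passed. The 5 hairpins mir-229, mir-63, mir-64, mir-65 and mir-66 had 2 lowered guides and 1 lowered star. Among the smaller groups listed, mir-72 to mir-74, mir-75 and mir-79, mir-46 and mir-47, mir-87 and mir-233, mir-49 and mir-83, and mir-253 and mir-244 had 0 called arms of either kind, and mir-86 and mir-785 had 1, mir-785_3p.

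mir-243 is the miRNA known in worms for directing cleavage of a fully paired target, and its guide was low in double AEDH animals. mir-243_3p measured 236, 156, 307 and 186 CPM in double AEDH and 153, 148, 178 and 303 CPM in ebax-1 null double AEDH, beside 427 ± 139 CPM in wild type and 339 ± 98.8 CPM in ebax-1 null (SD, n = 4 each). The 2 double AEDH groups overlapped over nearly their whole range. Loss of ebax-1 gave a log2 fold change of -0.18 (interval -0.77 to 0.41, edgeR adjusted p = 0.821), and -0.42 without replicate 4, the highest library of its group. With spike-in scaling the change was 0.33 (interval -0.18 to 0.84), where the median of all arms was also higher. Set beside these values, double AEDH differed from wild type in the same experiment by -0.95 (edgeR adjusted p = 0.0395). The same double AEDH libraries entered both comparisons. That reference call did not pass without wild type replicate 1 or 3 or without double AEDH replicate 1, 2 or 4 (log2 fold change -1.20 to -0.77 over the 8 omissions, adjusted p up to 0.188). mir-243_5p, the star, was at 7.37 ± 2.42 against 7.65 ± 1.10 CPM (0.054, interval -0.43 to 0.54).

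Other arms that differ between double AEDH and wild type can be read the same way. These comparisons share the double AEDH libraries, so the values are set side by side and no overlap is drawn from them. In experiment 2, 18 of 226 arms differed (7.96%), 7 higher (3.10%) and 11 lower (4.87%). Of the arms named from these, mir-237_3p*, mir-243_3p, mir-58a_5p*, mir-54_3p and mir-784_5p did not pass under 2 to 5 of the 8 omissions of a library. Of the 11 lower in double AEDH, mir-247_3p (-0.83 there) and mir-58a_5p* (-0.43) rose on loss of ebax-1. mir-247_3p then stood at 106 CPM on average, above its wild-type level of 22.8 ± 2.87 CPM. mir-1829a_5p and mir-2953_3p, by contrast, went down further. mir-1829a_5p was 226 ± 34.5 CPM in wild type, 129.6, 101, 138 and 121 CPM in double AEDH and 72.2, 70.0, 79.5 and 85.0 CPM in ebax-1 null double AEDH, with no overlap between the last 2. Its changes were -0.88 with double AEDH and -0.68 with loss of ebax-1 (edgeR adjusted p = 0.00168), although against the double AEDH libraries with the Y47H10A.5 site deletion the latter was -0.33 and did not pass (adjusted p = 0.131). mir-2953_3p was 16.0 ± 3.31 CPM in wild type and 3.58, 7.64, 6.96 and 8.79 CPM and then 3.21, 2.79, 4.71 and 3.43 CPM in the double AEDH groups, which overlapped through double AEDH replicate 1.

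The remaining 7 arms lower in double AEDH, mir-358_5p*, mir-243_3p, mir-1_5p*, mir-800_3p, mir-784_5p, mir-48_3p* and mir-54_3p, had log2 fold changes of -0.41 to 0.44 on loss of ebax-1 and none passed. For mir-1_5p* (from 142 ± 25.6 CPM in wild type to 75.5 ± 4.33 CPM) the interval on loss of ebax-1 was -0.19 to 0.49. Of the 7 arms higher in double AEDH, mir-237_3p* rose again. mir-63_5p* and mir-72_3p*, which also differed in the separate young adult libraries of experiment 1, were at 441, 286, 423 and 317 CPM against 207, 215, 229.6 and 302 CPM and at 108, 127, 94.7 and 138 CPM against 146, 133, 153 and 141 CPM. Both pairs of groups overlapped. mir-63_5p* missed the threshold (-0.62, interval -1.09 to -0.16, adjusted p = 0.0593) but passed with total counts as the scaling (adjusted p = 0.0259), without the count filter (0.0484) and when only the compared groups were fitted (0.0460), and mir-72_3p* had 0.30 (interval -0.028 to 0.62). In all, 3 arms differed in that experiment (1.36% of 220; 0 to 10 with a library left out), the third being mir-1829a_5p.

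**Figure D4:**
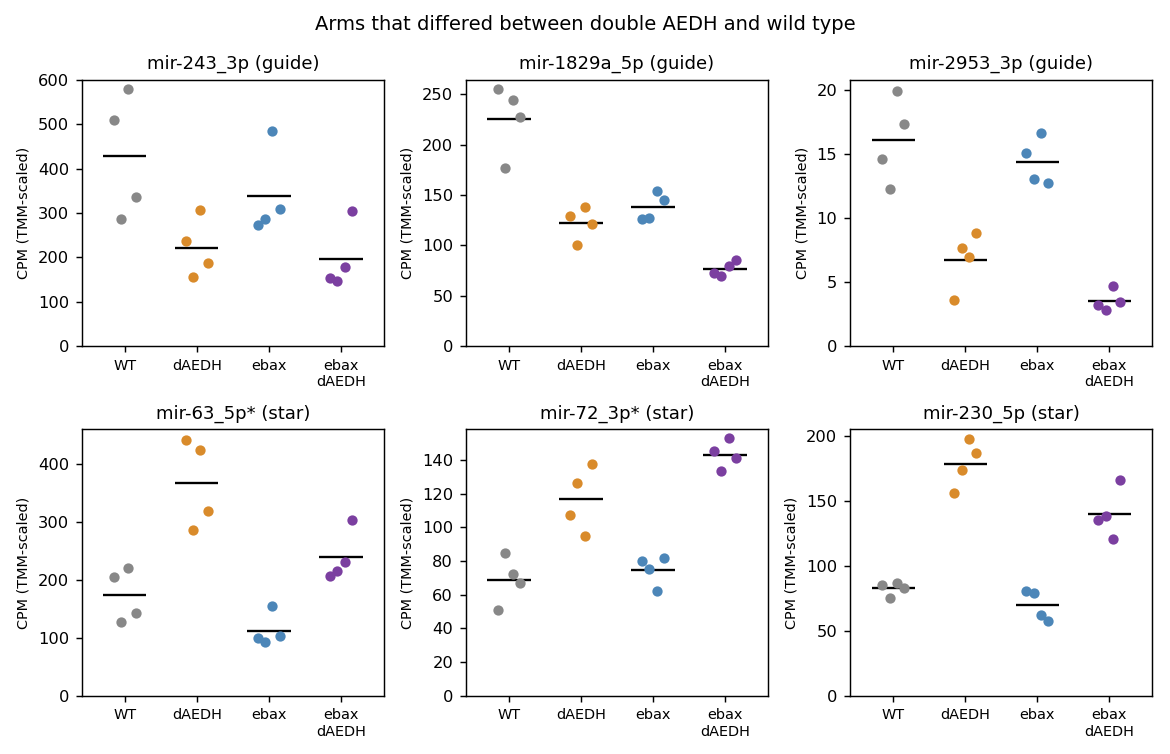
Levels of 6 arms that differed between double AEDH and wild type (y axis, TMM-scaled CPM from 0; points are libraries and bars means, n = 4) in wild type (WT), double AEDH (dAEDH), ebax-1 null (ebax) and ebax-1 null double AEDH (ebax dAEDH). mir-243_3p overlaps between the 2 double AEDH groups, while mir-1829a_5p is at 101 to 138 CPM in double AEDH and at 70.0 to 85.0 CPM in ebax-1 null double AEDH.

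The same deletion was then compared in animals with intact Argonautes. The 8 libraries of that comparison, some already cited for reference, share no library with the 8 double AEDH ones but are part of the same edgeR fit and its estimate of the spread. ebax-1 null against wild type gave 49 of 226 arms (21.7%), 23 higher (10.2%) and 26 lower (11.5%), and 107 higher and 0 lower with spike-in scaling. Of the 36 arms called in the double AEDH background, 26 were also called there, all in the same direction, 13 higher and 13 lower; this is 72.2% of the first list and 53.1% of the second. The signs matched for 35 of the 36, the exception being mir-82_5p* at -0.023 in the intact background. Across the 226 arms the log2 fold changes of the 2 comparisons correlated with r = 0.81 and rho = 0.67, and with r = 0.63 without the 10 arms of largest change. The points are arms and not replicates, and they share libraries and their preparation, so no p is given.

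For the raised arms with the largest changes, the 2 backgrounds were compared directly, and no difference passed over all arms. mir-788_5p* reached 535 ± 71.0 CPM in ebax-1 null against 29.6 ± 1.04 in wild type, and the difference between the 2 backgrounds' log2 fold changes was -0.028 (interval -0.57 to 0.51). mir-42_3p reached 1682 ± 441 against 129 ± 34.6 CPM, with a difference of -0.29 (-0.93 to 0.34). For mir-247_3p, at 173 ± 46.6 against 22.8 ± 2.87 CPM, it was 0.11 (-0.48 to 0.71), and for mir-43_3p, at 13.6 ± 3.19 against 1.53 ± 0.608 CPM, it was -0.80 (-2.03 to 0.44). mir-230_3p, at 3046 ± 461 against 777 ± 85.0 CPM, differed by -0.27 (-0.75 to 0.22). These intervals set the size of a difference that the libraries could have missed, which for mir-43_3p is large.

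let-7_3p* had the opposite tendency, 16.9 ± 7.23 CPM in ebax-1 null against 8.05 ± 2.02 in wild type and a difference of 0.99 (0.10 to 1.87), which did not pass over all arms (edgeR adjusted p = 0.654). The 10 arms called in the double AEDH background alone had log2 fold changes of -0.44 to 0.21 in the intact one, and 2 of them had an unadjusted p under 0.05 for the difference (5.75% of all arms had). The 23 called in the intact background alone had -0.62 to 0.65 in double AEDH, 19 with the same sign, and 7 had an unadjusted p under 0.05. A call in one background and not in the other is therefore mostly not shown to differ between them.

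**Figure D5:**
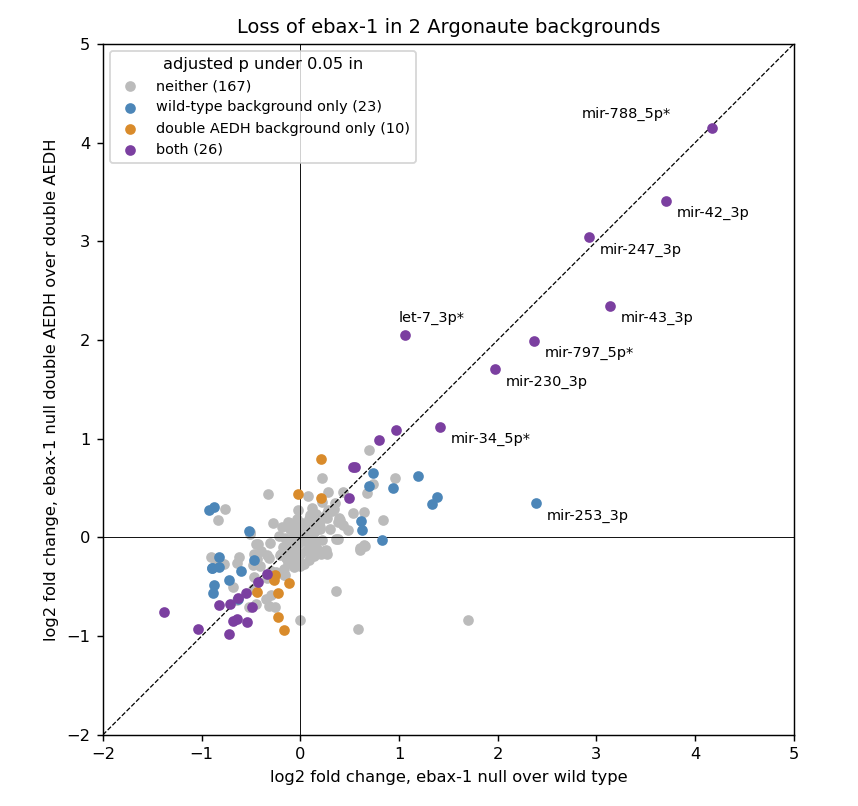
Log2 fold change of each of the 226 arms on loss of ebax-1 in the intact background (x axis, ebax-1 null over wild type) and in the double AEDH background (y axis), coloured by where the arm passed; the dashed line marks equal change. mir-788_5p*, mir-42_3p and mir-247_3p lie near the line, and mir-253_3p lies far to its right (2.39 against 0.34).

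The difference itself passed for 2 arms of 226 (0.885%, edgeR adjusted p under 0.05; 13 with an unadjusted p under 0.05, and 3 by DESeq2), both higher in the double AEDH background. They are mir-1829b_3p* and mir-1829c_3p*, near-identical annotated star arms from introns of F20D1.3 and piki-1. Counting could have shared their reads, so they amount to 1 observation. In every double AEDH and ebax-1 null double AEDH library these stars had more counts than their guides (1109 to 1887 for mir-1829b_3p*, 57 to 141 for mir-1829b_5p). mir-1829b_3p* was 137, 155, 146 and 130.2 CPM in double AEDH and 136, 151, 187 and 231 CPM in ebax-1 null double AEDH, with overlap (0.31, interval -0.10 to 0.72). In the intact background it went from 178 ± 21.7 to 97.0 ± 17.1 CPM (-0.88). The difference was 1.19 for mir-1829b_3p* and 1.20 for mir-1829c_3p* (adjusted p = 0.0345 for each). It did not pass with spike-in scaling (adjusted p = 0.878) or without replicate 1 or 2 of double AEDH, replicate 3 or 4 of ebax-1 null double AEDH, replicate 2 or 4 of ebax-1 null or replicate 3 of wild type (adjusted p 0.0624 to 0.150).

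mir-253_3p, from an intron of F44E7.5, showed the largest difference in size among the arms with an unadjusted p under 0.05 and a level above 10 CPM. In the intact background it measured 317, 244, 372 and 269 CPM in wild type and 569, 435, 3261 and 2030.3 CPM in ebax-1 null, where replicates 3 and 4 were far above replicates 1 and 2. In the double AEDH background it measured 444, 263, 501 and 358 CPM and 628, 442, 362 and 555 CPM, with overlap. The log2 fold changes were 2.39 (edgeR adjusted p = 0.000452) and 0.34 (interval -0.53 to 1.21, adjusted p = 0.748), and their difference was -2.05 (interval -3.29 to -0.80), which did not pass (adjusted p = 0.182). It passed by DESeq2 (0.0419), with spike-in scaling (0.0367) and without ebax-1 null replicate 1 (0.0349) or 2 (0.0162), and the difference was -1.41 without ebax-1 null replicate 3. mir-244_5p, at 80.5, 78.1, 78.6 and 80.2 CPM in double AEDH and 108, 113, 169 and 98.1 CPM without ebax-1, did not overlap between the groups but just missed the threshold (0.62, adjusted p = 0.0557). In this background it did pass with DESeq2 size factors (adjusted p = 0.0467), by DESeq2 (0.0300), with spike-in scaling (0.0263), when only the compared groups were fitted (0.0440) and without ebax-1 null double AEDH replicate 1 or 4 (as low as 0.0255). It passed in the intact background (1.19), and the difference was -0.57 (-1.21 to 0.064).

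Star-to-guide ratios gave 0 of 92 hairpins whose response differed between backgrounds (limma adjusted p under 0.05; 6, or 6.52%, with an unadjusted p under 0.05). The count was 1 when 5 was added to each count or when hairpins needed a mean count of 50. mir-253 came nearest, with a difference of 2.17 (interval 1.04 to 3.30, adjusted p = 0.0573). In the intact background itself 10 of 92 hairpins passed (10.9%), 4 upward (4.35%) and 6 downward (6.52%). mir-788 had 4.62 there, mir-42 -3.40 and mir-230 -2.22, beside 4.57, -3.24 and -2.06 in the double AEDH background. For let-7 the star share was 0.0816 ± 0.0173% in wild type and 0.150 ± 0.0672% in ebax-1 null.

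Markers of tissue and stage were read beside these results. mir-1_3p, the muscle miRNA, was at 123094 ± 33613 against 98641 ± 10988 CPM (SD, n = 4 each; -0.32, interval -0.78 to 0.14). mir-124_3p, the neuronal miRNA, was at 4.20 ± 1.25 against 3.80 ± 1.20 CPM (-0.13, interval -0.87 to 0.62), a rare arm in these libraries. Of the 4 neuronal guides listed, 1 was lower (lsy-6_3p, where 8.85% of all arms were lower), with a list median of -0.21. let-7_5p, which accumulates late in larval life, and lin-4_5p, which accumulates earlier, did not pass in the double AEDH background, as given above. All groups overlapped for these 4 markers. The part of tissue or stage in the results was not tested.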

How the data were processed

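Small RNA of whole young adults was sequenced from ligation-based libraries, with gel size selection and RNase H treatment, per the labels' protocols. The deposited table holds estimated counts per miRNA arm, not normalized, with arms placed by MirGeneDB on ce11, per the file headers. The tools named in the submitters' processing notes are HTSeq 0.13.5, SAMtools 1.13, Bowtie2 2.4.4, cutadapt 3.4 and DESeq2; how reads were assigned to arms is not given in the sources used here. Counts ending in 0.5 (2.60% of the values in experiment 2) were rounded up. Spike-ins and reads outside annotated features (23.2 to 27.8% of reads in the 8 libraries) stayed out of library sizes and tests. The labels name no molecular identifiers, so count floors cover counting error only.

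For 132 hairpins the annotation marks the star arm, and for 6 the rarer arm was taken. edgeR 4.0.16 in R 4.3.3 was used to test arms (quasi-likelihood, TMM, filterByExpr with a minimum count of 10, robust) over all 24 young adult libraries of experiment 2 in 6 groups, which share 1 estimate of the spread. P-values were adjusted over all arms tested by the Benjamini-Hochberg method, with a threshold of 0.05. Experiment 1 was fitted separately. Ratios were log2 of star over guide counts with 0.5 added, in hairpins whose arms both averaged 10 counts or more, and were tested with limma 3.58.1. Intervals are 95%. Values per library were compared by exact permutation. Gene context is from the WBcel235 annotation. The fits were checked on simulated data.

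Arms were named by rule: both arms of mir-243, up to 15 per direction of largest change past the threshold and averaging 10 CPM or more, their partners and hairpins within 10 kb, up to 10 per direction for ratios and differences, called members of the miRNA lists, and the markers. The members, lists and tests were chosen with earlier results of these data known. Alternatives were DESeq2 1.42.0, other scalings (DESeq2 size factors, total counts, spike-ins), no count filter, pseudocounts of 1 and 5, other count minimums for ratios, a replicate block, fits of the compared groups alone, leaving out each library and, chosen after seeing the data, the double AEDH libraries with the Y47H10A.5 site deletion as control.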

Additional observations from a re-analysis of the deposited data

Results flagged for a closer look

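Within groups of 4 libraries, 62 sets of values were checked for a library far from the other 3, and 11 had one, where chance gives about 1 in 20. Replicate 4 of ebax-1 null double AEDH was that library in 9. It was high for mir-45_3p (53651 against 36119 to 37432 CPM in the other 3), for mir-44_3p (54605 against 36207 to 37902 CPM), for mir-237_3p* (87.5 against 52.5 to 57.2 CPM), for mir-67_5p* (26.8 against 23.0 to 23.4 CPM), for mir-254_3p (138 against 101 to 106 CPM) and for mir-795_3p* (15.1 against 9.42 to 10.3 CPM). It was low for mir-34_5p* (318 against 692 to 722 CPM), for mir-60_3p (432 against 634 to 653 CPM) and for mir-236_3p (48.2 against 80.1 to 81.2 CPM). The direction of these departures was not uniform: for mir-44_3p, mir-45_3p, mir-237_3p* and mir-67_5p* the library lay farther from double AEDH than its group, and for mir-34_5p* it lay within the double AEDH range. Replicate 3 of ebax-1 null double AEDH was low for mir-785_3p (152 against 174 to 175 CPM), and replicate 2 of double AEDH was low for mir-45_3p (23292 against 25433 to 25726 CPM).

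The effect of losing ebax-1 differed between the double AEDH and the intact background for mir-1829b_3p* (difference in log2 fold change 1.19, edgeR adjusted p = 0.0345) and for mir-1829c_3p* (1.20, the same adjusted p). These arms are near-identical and count as 1 observation. The difference did not pass with spike-in scaling (edgeR adjusted p = 0.878) or under several omissions of a library, as listed above. Within the double AEDH background mir-1829b_3p* itself did not pass (0.31, edgeR adjusted p = 0.403).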

How the results depend on the processing

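Over the named arms and ratios, 1104 of 1355 values under the alternatives kept their direction and side of the threshold. Called arms on loss of ebax-1 in double AEDH numbered 26 to 44 over the scalings, filters, tests and fits tried, and 19 to 29 with 1 library left out. The counts with 1 library left out were 28 (without ebax-1 null replicate 2; 32 without wild type replicate 1) to 50 for ebax-1 null against wild type, 0 to 3 for the difference between backgrounds, 13 to 18 and 0 to 10 for double AEDH against wild type in experiments 2 and 1, and 7 to 9, 7 to 13 and 0 to 1 for the ratios in the double AEDH background, the intact one and their difference. The median ratio shift was then 0.079 to 0.15 and the change in star share 0.106 to 0.227 percentage points. Spike-in totals gave 107 calls, all higher, for ebax-1 null against wild type, and 1 for the difference between backgrounds. Experiment 1 gave 6 calls with DESeq2 size factors and 14 with the replicate block. Ratios gave 5 calls when only the compared groups were fitted, and their difference gave 1 with a pseudocount of 5 or a mean count of 50. Signs turned with spike-in totals, where the median of all arms is 0.47, for mir-137_3p (0.13), mir-229_3p* (0.070), mir-229_5p (0.10), mir-245_3p (0.042), mir-63_3p (0.15), mir-243_3p (0.33), mir-1_3p (0.22), mir-124_3p (0.46), mir-788_3p (0.12), mir-230_5p (0.14), mir-34_3p (0.24), mir-82_3p (0.27) and mir-58a_3p (0.32). With 1 library left out, arms near 0 ranged across it: let-7_5p (-0.00016 to 0.26), mir-124_3p (-0.28 to 0.15), mir-235_5p* (-0.25 to 0.22), mir-243_3p (-0.42 to 0.063), mir-243_5p (-0.012 to 0.28) and mir-45_5p* (-0.066 to 0.32). With the site deletion libraries as control the signs of mir-243_5p (-0.063), mir-1_3p (0.16) and mir-235_5p* (-0.16) turned. The cause of these shifts was not tested. The replicate numbers were also used as a block. Same-numbered libraries of the 2 double AEDH groups correlated at -0.29 to 0.41 in their deviations from the group means and differently numbered ones at -0.59 to 0.50, so the numbers do not pair them. With the replicate block 44 arms passed (19 higher, 25 lower) in place of 36, with all 36 among them, and also lin-4_5p (adjusted p = 0.0226), mir-63_5p* (0.0161) and mir-244_5p (0.0487), 53 in the intact background and 2 for the difference; the ratios gave 9, 13 and 0. The median ratio shift and the star share were above 0 in 4 of 4 same-numbered pairs (exact sign-flip p = 0.125 each, the smallest 4 pairs allow). With the site deletion libraries as control 27 arms passed, 12 of the 16 raised and 13 of the 20 lowered arms among them. Depth limits arms under about 1 CPM, near the floor of 0.253 to 0.362 CPM, such as mir-43_5p*.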
